A study of Mus musculus with 6 samples.

Results

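The GIMAP proteins (GTPases of immunity-associated proteins) are a small family of GTP-binding proteins found mainly in lymphocytes. The 8 genes Gimap1, Gimap3, Gimap4, Gimap5, Gimap6, Gimap7, Gimap8 and Gimap9 were taken from the mRNA table by their gene names, 1 value per gene identifier, and are 8 of the 21954 genes in that table. All 8 were tested, because each averaged at least 0.5 FPKM (sequenced fragments, scaled for transcript length and for the depth of the library). Polyadenylated RNA had been sequenced from whole thymus of wild-type C57BL mice aged 5 weeks. Control mice (3 libraries) received no radiation, and irradiated mice (3 libraries) received 6 Gy of X-rays and were killed after 24 h. Libraries are called control 1 to 3 and irradiated 1 to 3. The labels give 3 mice per group but do not tie each library to an animal, so p-values measure only the spread between these libraries.

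GIMAP proteins share a domain of the AIG1 type, which binds GTP through a phosphate-binding loop, and several of them sit on membranes inside the cell. The family is best known for keeping T and B lymphocytes alive: loss of Gimap5 or of Gimap1 in mice leaves few peripheral lymphocytes. In the thymus, most cells are dividing or resting cortical thymocytes, which ionising radiation kills readily, beside fewer mature T cells, stromal cells, macrophages and vessels.

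The phosphate-binding loop is a glycine, any 4 residues, a second glycine, a lysine and a serine or threonine. Its coding sequence is shown for each member because the loop is the phosphate-binding part of the family's shared domain. That sequence also shows how near Gimap3 and Gimap5 are to each other. The sequences were read from GENCODE M21 transcripts (mouse build GRCm38), 5′ to 3′ on the coding strand, with the last 3 codons (glycine, lysine, serine) in capitals. Gimap8 encodes 3 GTPase domains, and the loop was found 3 times in its coding sequence, starting at codons 55, 291 and 482.
Gimap1: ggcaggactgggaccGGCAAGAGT
Gimap3: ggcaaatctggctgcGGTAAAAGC
Gimap5: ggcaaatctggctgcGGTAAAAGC
Gimap4: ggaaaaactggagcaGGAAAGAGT
Gimap6: gggaaaacaggaagcGGGAAAAGT
Gimap7: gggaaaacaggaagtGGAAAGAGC
Gimap9: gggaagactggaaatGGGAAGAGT
Gimap8 loop 1: gggaaacagggcgcaGGCAAAAGT
Gimap8 loop 2: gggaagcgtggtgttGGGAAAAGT
Gimap8 loop 3: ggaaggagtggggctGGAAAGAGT
The stretches of Gimap3 and Gimap5 were identical, and those of the other members all differed. Over their whole coding sequences Gimap3 and Gimap5 were identical at 87.9% of the longer sequence, and the next most similar pair, Gimap7 and Gimap9, at 66.7%. Of 28 pairs, Gimap3 and Gimap5 were also the one pair whose transcripts shared any stretch of 31 bases. They shared 335 such stretches, 13.1% of those in Gimap3 and 8.02% of those in Gimap5. How reads that match both genes were counted is not given in the sources used here, so the levels of Gimap3 and Gimap5 are uncertain to the extent of that sharing.

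The 8 genes lie side by side on chromosome 6, from 48647234 to 48770851 (GRCm38), a stretch of 123.6 kb. In order along the chromosome they are Gimap8, Gimap9, Gimap4, Gimap6, Gimap7, Gimap1, Gimap5 and Gimap3. Gimap6 and Gimap3 are on the minus strand and the other 6 on the plus strand.

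At 24 h, 5 of the 8 genes were lower in irradiated thymus, 1 was higher and 2 did not pass the test. Gimap9, Gimap1, Gimap6, Gimap7 and Gimap8 fell, to between 20.1% and 45.0% of the control mean. Gimap3 rose to 192% of the control mean, and Gimap4 and Gimap5 did not pass. Changes were tested with limma on log2(FPKM + 0.1) over all 14001 tested genes of the mRNA table, with Benjamini-Hochberg adjustment and a threshold of 0.05. In that fit 63.2% of all genes tested passed, made up of 42.4% higher and 20.9% lower. For 6 of the 8 members no irradiated library fell within the control range or the reverse, against 70.8% of all genes. The members had a median log2 fold change of -1.22, against 0.40 over all genes tested. In whole tissue, fewer cells of a type and less RNA per cell cannot be told apart.

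**Figure D1:**
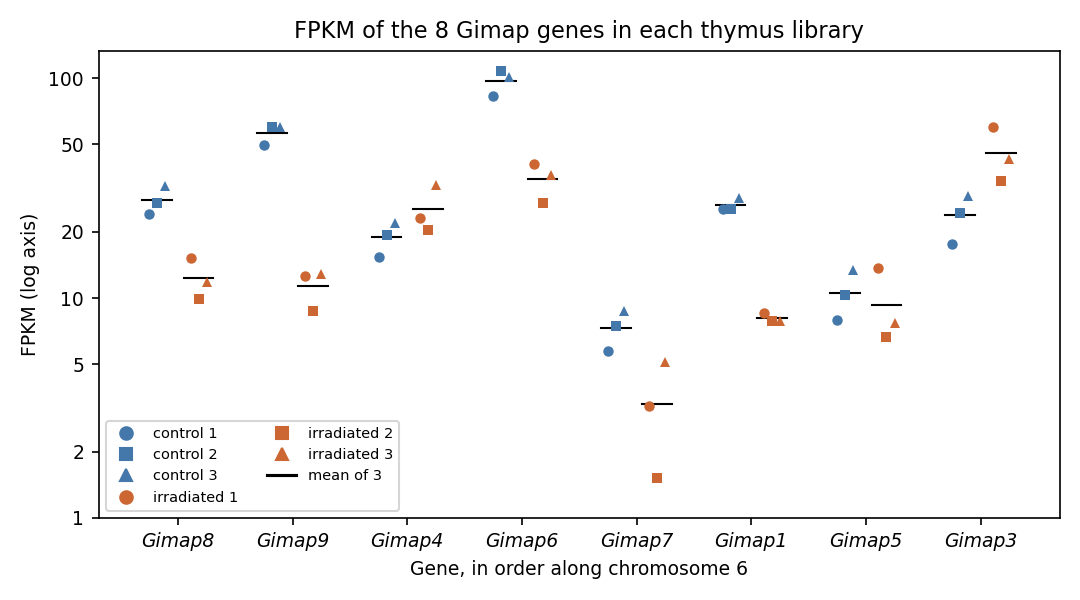
FPKM of each Gimap gene in each library on a log axis, with controls in blue, irradiated libraries in orange, marker shapes for replicates 1 to 3 and a black line for the mean of 3. The irradiated points lie below the control points for Gimap8, Gimap9, Gimap6, Gimap7 and Gimap1, and above them for Gimap3. For Gimap4 and Gimap5 the ranges of the groups overlap.

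Gimap5 (ENSMUSG00000043505, chromosome 6, 48746197 to 48754210) encodes a lysosomal GTPase whose loss causes lymphopenia in mice and rats. It measured 7.97, 10.3 and 13.4 FPKM in control 1 to 3 and 13.7, 6.63 and 7.69 FPKM in irradiated 1 to 3. Irradiated 1 was above every control and irradiated 2 and 3 were below every control, so the groups overlapped. Its log2 change of -0.22 ± 0.31 (SE) did not pass (limma adjusted p = 0.555). Without irradiated 1 it was -0.53 (limma adjusted p = 0.0664), and without irradiated 2 it was -0.012.

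Gimap3 (ENSMUSG00000039264, chromosome 6, 48764464 to 48770851), the close paralog of Gimap5 at the end of the cluster, has been linked in mice to the segregation of mitochondrial DNA in blood cells. It measured 17.6, 24.4 and 29.2 FPKM in control 1 to 3 and 60.0, 33.9 and 43.0 FPKM in irradiated 1 to 3. All irradiated libraries were above all controls, with irradiated 1 the highest and irradiated 2 nearest the controls. Gimap3 rose from 23.7 ± 5.82 to 45.7 ± 13.3 FPKM (SD, n = 3 each), by 0.93 ± 0.26 on the log2 scale (SE, limma adjusted p = 0.0181). The call was lost without control 1 (0.73, limma adjusted p = 0.0660) and without control 2 (0.97, limma adjusted p = 0.0502), and under other scalings given below. The authors' deposited table gave 0.72 on the log2 scale, and its adjusted p of 0.0734 did not pass.

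The ratio of this close pair was also compared. The log2 ratio of Gimap5 to Gimap3 ran from -1.23 to -1.12 in controls and from -2.47 to -2.13 in irradiated libraries. The groups did not overlap, and the ratio differed by -1.15 ± 0.11 (SE). An exact two-sided permutation test gave p = 0.1, the smallest that 3 against 3 libraries allow, and p = 0.133 after Benjamini-Hochberg adjustment over the 28 pairs of members.

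Gimap1 (ENSMUSG00000090019, chromosome 6, 48739054 to 48743794) is needed for the survival of mature T and B cells. It measured 25.4, 25.4 and 28.6 FPKM in control 1 to 3 and 8.54, 7.86 and 7.86 FPKM in irradiated 1 to 3. The groups lay far apart, and the spread within each was the smallest among the members: the coefficient of variation was 6.92% in controls and 4.92% in irradiated libraries. Gimap1 fell by 1.70 ± 0.12 on the log2 scale (SE, limma adjusted p = 9.13e-05), from 26.4 ± 1.83 to 8.09 ± 0.397 FPKM (SD, n = 3 each). Part of this value may come from the opposite strand, since exons of the antisense gene Gimap1os cover 1107 of the 3073 exonic bases of Gimap1 (36.0%) and strand use in counting is not given in the sources used here.

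Gimap6 (ENSMUSG00000047867, chromosome 6, 48701582 to 48708225) binds the autophagy protein Gabarapl2 and was the most abundant member in controls. It measured 82.6, 108 and 101 FPKM in control 1 to 3 and 40.9, 27.0 and 36.2 FPKM in irradiated 1 to 3. Every irradiated library was below every control, irradiated 2 by most. Gimap6 fell by 1.50 ± 0.20 on the log2 scale (SE, limma adjusted p = 0.000704), from 97.2 ± 13.0 to 34.7 ± 7.06 FPKM (SD, n = 3 each).

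Gimap7 (ENSMUSG00000043931, chromosome 6, 48718621 to 48724636) encodes a protein that can stimulate GTP hydrolysis by other family members, and it had the lowest level of the 8. It measured 5.74, 7.49 and 8.77 FPKM in control 1 to 3 and 3.24, 1.52 and 5.14 FPKM in irradiated 1 to 3. The groups did not overlap, but irradiated 3 came close to control 1, and the irradiated libraries spread more widely than for any other member (coefficient of variation 54.7%). Gimap7 fell by 1.26 ± 0.42 on the log2 scale (SE, limma adjusted p = 0.0325). This call was the least stable of those that fell: without control 1, 2 or 3 the limma adjusted p was 0.0540, 0.0893 and 0.107. Without irradiated 2 the log2 fold change was -0.81 (limma adjusted p = 0.0480).

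Gimap4 (ENSMUSG00000054435, chromosome 6, 48684549 to 48692060) has been linked to the course of apoptosis in T cells. It measured 15.3, 19.4 and 22.0 FPKM in control 1 to 3 and 23.2, 20.3 and 32.6 FPKM in irradiated 1 to 3. Irradiated 1 and 3 were above every control, while irradiated 2 lay between control 2 and control 3. Its log2 change of 0.41 ± 0.22 (SE) did not pass (limma adjusted p = 0.140), and the authors' deposited table gave 0.16 with an adjusted p of 0.772.

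Gimap8 (ENSMUSG00000064262, chromosome 6, 48647234 to 48660875), the member with 3 GTPase domains, opens the cluster. It measured 24.1, 26.9 and 32.5 FPKM in control 1 to 3 and 15.2, 9.92 and 11.8 FPKM in irradiated 1 to 3. The groups did not overlap, and irradiated 2 was again the lowest. Gimap8 fell by 1.18 ± 0.20 on the log2 scale (SE, limma adjusted p = 0.00191), from 27.8 ± 4.28 to 12.3 ± 2.69 FPKM (SD, n = 3 each).

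Gimap9 (ENSMUSG00000051124, chromosome 6, 48676129 to 48679114) had the largest change of the 8. It measured 49.7, 59.9 and 60.0 FPKM in control 1 to 3 and 12.5, 8.73 and 12.8 FPKM in irradiated 1 to 3. Its lowest control was more than 3 times its highest irradiated library. Gimap9 fell by 2.32 ± 0.19 on the log2 scale (SE, limma adjusted p = 0.000115), from 56.5 ± 5.93 to 11.4 ± 2.29 FPKM (SD, n = 3 each). Of its neighbours along the chromosome, Gimap8 fell (-1.18) and Gimap4 did not pass.

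**Figure D2:**
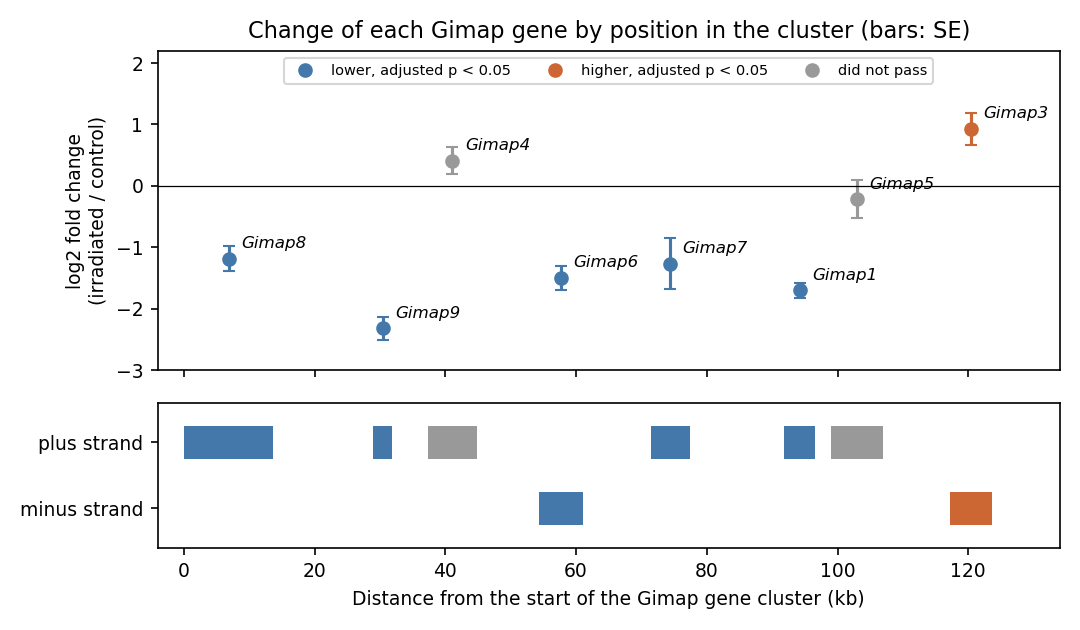
Log2 fold change of each Gimap gene (irradiated over control, bars are SE) against its distance from the start of the cluster in kb, with each gene's extent and strand drawn below. Blue marks a fall and orange a rise past adjusted p of 0.05, and grey marks genes that did not pass. The lowest point, Gimap9, stands between Gimap8 and Gimap4, and Gimap1 stands between Gimap7 and Gimap5.

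The authors' deposited DESeq2 values for the members that fell were -1.38 for Gimap8, -2.55 for Gimap9, -1.71 for Gimap6, -1.50 for Gimap7 and -1.72 for Gimap1. All 5 passed in the authors' deposited table, with Gimap7 nearest the threshold (adjusted p = 0.0364), and 0 members were called higher there.

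Because FPKM is a level per length, the members can be ranked within a group. In controls Gimap6 stood first and Gimap9 second, each above the next gene in every library. Gimap8, Gimap1, Gimap3 and Gimap4 followed, and each overlapped the next in that order. Gimap5 and Gimap7, which overlapped each other, were below all of these. In irradiated thymus Gimap3 led, at 45.7 FPKM, but its libraries overlapped those of Gimap6 (34.7 FPKM), which overlapped Gimap4 (25.4 FPKM). Gimap8, Gimap9, Gimap5 and Gimap1 formed a lower band, from 12.3 down to 8.09 FPKM, in which each overlapped the next. Gimap7 was lowest, at 3.30 FPKM, and did not overlap Gimap1.

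The summed FPKM of the 8 genes was 228, 282 and 296 in control 1 to 3 and 177, 116 and 157 in irradiated 1 to 3. The sum went from 269 ± 35.5 to 150 ± 31.3 (SD, n = 3 each), with no overlap. Gimap3 made up 8.76 ± 1.08% of the sum in controls and 30.2 ± 3.33% in irradiated thymus. Gimap4 made up 7.01 ± 0.392% and 17.1 ± 3.86%. The share of Gimap9 was 21.1 ± 0.747% in controls and 7.59 ± 0.552% in irradiated thymus, and that of Gimap6 was 36.2 ± 2.01% and 23.1 ± 0.147%. None of these 4 shares overlapped between the groups, nor did those of Gimap8, Gimap1 and Gimap5. Shares within a library are parts of the same sum, so they are not independent. Gimap7 took 2.71 ± 0.230% and 2.14 ± 1.01% of the sum, with overlap.

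**Figure D3:**
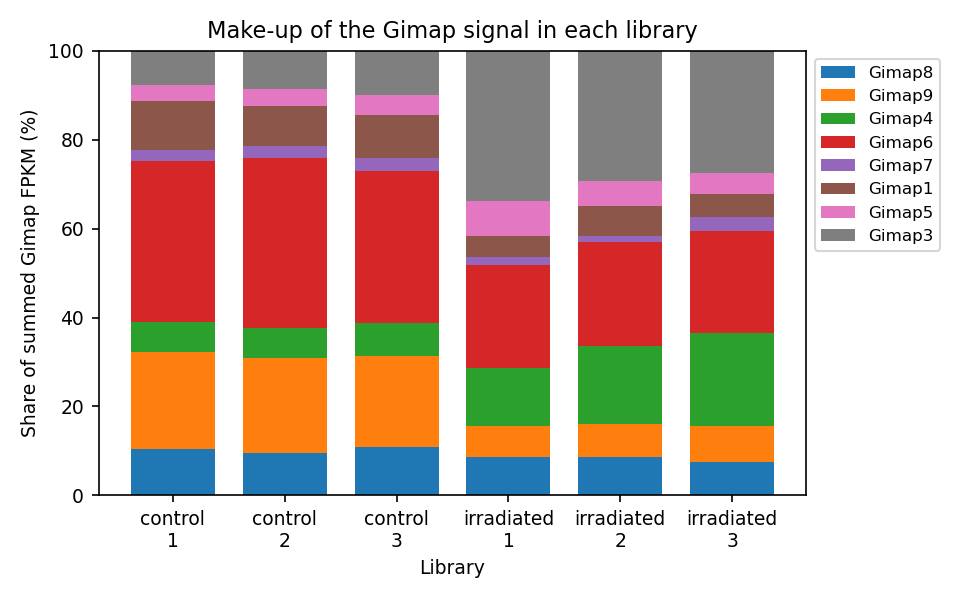
Share of each Gimap gene in the summed Gimap FPKM of each library, in percent. Gimap6 and Gimap9 together hold more of the sum in the 3 controls, and Gimap3 and Gimap4 hold more in the 3 irradiated libraries.

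Ratios between members are free of any single scaling factor per library. Of the 28 pairs, 21 had log2 ratios that did not overlap between groups. The share over pairs of other genes was not computed, and 70.8% of single genes did not overlap. Each of the 21 had an exact two-sided permutation p of 0.1, the smallest that 3 against 3 libraries allow. After Benjamini-Hochberg adjustment over the 28 pairs, this permutation p was 0.133. The widest shift was that of Gimap9 to Gimap3, from a mean log2 ratio of 1.27 in controls to -1.98 in irradiated thymus, a difference of -3.25 ± 0.20 (SE). Gimap9 to Gimap4 differed by -2.73 ± 0.16 and Gimap1 to Gimap3 by -2.63 ± 0.27. Gimap6 to Gimap1 overlapped between groups, with a difference of 0.20 ± 0.19 (exact permutation p = 0.3), and so did Gimap8 to Gimap7, with 0.082 ± 0.43 (exact permutation p = 0.9). The other 5 pairs that overlapped were Gimap4 with Gimap5, Gimap4 with Gimap3, and Gimap7 with Gimap6, Gimap1 and Gimap5.

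The scaling between libraries bears on the direction of the smaller changes. Over all genes tested the median change on the log2 scale was 0.40 in FPKM as deposited, -0.066 after quantile normalization, -0.078 after median-ratio scaling and 0.30 after scaling to equal summed FPKM. Counts of all genes, higher and lower, were 5933 and 2920 as deposited, 3501 and 4403 by quantile, 4371 and 4924 by median ratio, and 5505 and 2906 by summed FPKM. The same 5 members fell under all 4 scalings. Gimap9 ranged from -2.79 to -2.32, and Gimap7 from -2.11 after quantile normalization to -1.26 as deposited. Gimap3 passed after quantile normalization (0.87, limma adjusted p = 0.0478) but not after median-ratio scaling (0.46, limma adjusted p = 0.183) or summed-FPKM scaling (0.83, limma adjusted p = 0.0514). Relative to the median of all genes, Gimap3 stood at 0.53 to 0.93 over the 4 scalings. Gimap4 was 0.41 as deposited and -0.059 after median-ratio scaling, and relative to the median of all genes it was 0.0084 to 0.33. Gimap5 stayed below 0 under all 4, at -0.22 to -0.68, and did not pass in any.

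**Figure D4:**
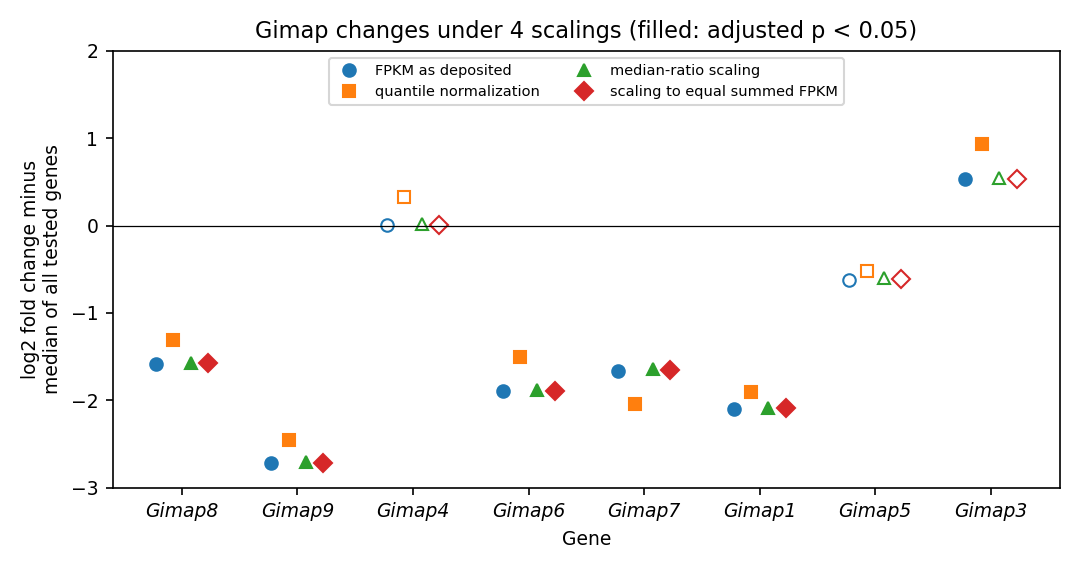
Log2 fold change of each Gimap gene minus the median of all tested genes, under 4 scalings between libraries, with filled markers for adjusted p under 0.05. Gimap9 lies lowest and Gimap3 highest under each of the 4, and Gimap3 is filled under FPKM as deposited and quantile normalization.

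Marker genes of the cell types of the tissue were compared as well. Of the list of double-positive (cortical) thymocyte genes 14 of 16 fell and 0 rose, and the list's median was -4.56 on the log2 scale. Examples are the chemokine receptor gene Ccr9 (-5.23) and the coreceptor genes Cd8b1 (-4.47) and Cd8a (-4.21), while Cd1d1 (-0.46) and Cd24a (-0.29) did not pass. All 10 genes of the T cell receptor complex list fell, with a median of -2.13, led by the surface glycoprotein gene Thy1 (-2.91), the kinase gene Lck (-2.80) and the zeta chain gene Cd247 (-2.79). Its mean log2 level fell against controls by 1.86, 2.48 and 2.07 in irradiated 1, 2 and 3, and the members' mean by 0.62, 1.23 and 0.71. In both, irradiated 2 was furthest below the controls and irradiated 1 nearest to them.

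Each member was then set against the T cell receptor complex list of its own library, by subtracting the mean log2(FPKM + 0.1) of those 10 genes. On this scale 95.2% of all tested genes passed, 93.8% higher and 1.47% lower, with a median of 2.54, so most genes stood above this list after irradiation. Among the members 6 were higher and 0 lower, with a median of 0.91, a smaller share and a lower median than over all genes. Gimap3 (3.07, limma adjusted p = 3.9e-06), Gimap4 (2.54, limma adjusted p = 1.23e-05) and Gimap5 (1.92, limma adjusted p = 6.83e-05) stood furthest above the list. Gimap8 (0.95), Gimap7 (0.87) and Gimap6 (0.64) were higher by less, with limma adjusted p of 0.000915, 0.0351 and 0.0098. Gimap1 (0.44, limma adjusted p = 0.0762) and Gimap9 (-0.18, limma adjusted p = 0.358) did not pass. Gimap7 lost this call after quantile normalization (0.066, limma adjusted p = 0.901) and without control 1, 2 or 3 or irradiated 3 (limma adjusted p 0.0682 to 0.127). Gimap1 passed without irradiated 1 (0.54, limma adjusted p = 0.0220) and with a pseudocount of 1 (0.51, limma adjusted p = 0.0410).

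Genes of mature T cells and of exit from the thymus were split: 10 of 18 rose, 3 fell and 5 did not pass, with a median of 0.72. Klf2 (1.46), a transcription factor that drives exit, S1pr1 (1.13), the receptor that guides it, and Ccr7 (0.99), a chemokine receptor of mature thymocytes, rose, as did the integrin gene Itgb7 (0.87). Tcf7 (-3.01), Cd27 (-3.20) and Txk (-1.81) fell. Il7r (0.16), Cd52 (0.41), Ms4a4b (0.42) and Slfn2 (0.68) were among those that did not pass. Among early thymocyte genes 7 of 12 rose, including Hes1 (2.56), Meis1 (2.55) and Bcl11a (2.50), and 1 (Mycn, -1.18) fell. The early genes Flt3 (0.79), Notch3 (0.58), Il2ra (0.38) and Notch1 (0.16) did not pass. Without control 1 the mature T cell list had 6 genes higher, and without control 1, 2 or 3 the early list had 0 lower. After median-ratio scaling the mature list also had 6 higher, and after quantile normalization the early list had 3 higher.

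Several Gimap genes are also known from other blood cells and from endothelium, so markers of those cells are given beside the members. Endothelial genes rose in 19 of 20 cases, with a median of 3.12, including Egfl7 (2.69), Esam (3.02) and Emcn (3.13), while Pecam1 (0.12) did not pass. Their summed level was 41.2 to 51.2 FPKM in controls and 85.3, 274 and 256 FPKM in irradiated 1, 2 and 3. Gimap3 measured 60.0, 33.9 and 43.0 FPKM in irradiated 1, 2 and 3, and any link between it and these endothelial genes was not tested. All 12 macrophage genes rose (median 2.79), with the smallest adjusted p for C1qa (2.84), Csf1r (3.06) and Axl (2.73). Natural killer genes were 6 higher and 1 lower of 10 tested, with Nkg7 (1.23) and Tbx21 (2.08) higher and Gzma (-2.40) lower, and 2 were higher after quantile normalization.

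Of the 12 B cell genes 3 rose, 2 fell and 7 did not pass, with a median of -0.38 and summed levels of 22.5 to 28.8 FPKM in controls and 24.7 to 54.0 FPKM in irradiated libraries. Ebf1 (2.80), Cd22 (2.75) and Spib (1.10) rose. The count of B cell genes lower was 0 to 1 without control 1, 2 or 3 or irradiated 3, and 8 after quantile normalization. Genes of airway and skeletal muscle, tissues outside the thymus, rose in 7 of 10 cases (2 after quantile normalization), and their summed level was 9.61 to 10.4 FPKM in controls and 49.2, 3268 and 73.1 FPKM in irradiated 1, 2 and 3. Without irradiated 2 the same 5 members fell and Gimap3 rose (1.13, limma adjusted p = 0.0116). No gene of these lists was at 0 in all libraries. The part of each cell type in the members' changes was not tested.

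Genes that GIMAP proteins bind or act with were taken as a list of 15: the BCL2 family, the GABARAP and LC3 proteins of autophagy, the kinases GSK3A and GSK3B with beta-catenin, and the interleukin-7 receptor. In irradiated thymus 3 rose, 1 fell and 11 did not pass, with a median of 0.20 against 0.40 for all genes. The autophagy genes Gabarapl1 (9.27 ± 0.387 to 51.6 ± 2.33 FPKM, log2 fold change 2.46) and Gabarap (41.1 ± 3.23 to 161 ± 54.5 FPKM, 1.91) rose, as did the pro-apoptotic Bax (19.5 ± 1.37 to 49.5 ± 9.76 FPKM, 1.32). Gabarapl2, the partner of Gimap6, went from 24.2 ± 2.33 to 27.7 ± 1.54 FPKM (0.20, limma adjusted p = 0.216) and did not pass. The anti-apoptotic Bcl2l1 fell by 0.82 (limma adjusted p = 0.0175), while Bcl2 (0.62, limma adjusted p = 0.210) and Mcl1 (0.043, limma adjusted p = 0.810) did not pass. Gsk3b (-0.25), Gsk3a (-0.25), Ctnnb1 (0.25), Il7r (0.16), Bad (-0.010), Bak1 (1.08), Bcl2l11 (-0.55) and Map1lc3b (0.93) also did not pass. The count of partner genes lower was 0 without control 2 or 3 or irradiated 2, and 4 without irradiated 1 and after median-ratio scaling.

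The lncRNA table lists noncoding transcripts of coding genes as well as antisense genes, and 10 of its 53001 transcripts carry a Gimap name. All 10 averaged at least 0.1 FPKM and were tested among 30613 transcripts, of which 24.7% passed (9.15% higher, 15.6% lower). After quantile normalization 2800 were higher and 2496 lower, against 2802 and 4773 as deposited. Of the 10, 6 were lower, 0 higher and 4 did not pass, and 7 did not overlap between groups, against 45.7% of all transcripts. These values are not independent of the mRNA values, since the transcripts lie in the same loci and reads in shared sequence could count in both tables. Nor are the 10 transcripts independent of each other, since those of Gimap1 and Gimap1os share a locus and those of Gimap5 share another.

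Gimap1os runs antisense to Gimap1. Its transcript ENSMUST00000205172 (48739501 to 48741444, minus strand) measured 3.18, 3.28 and 4.27 FPKM in control 1 to 3 and 0.596, 0.623 and 0.686 FPKM in irradiated 1 to 3. It fell by 2.31 ± 0.25 on the log2 scale (SE, limma adjusted p = 0.00203), with no overlap. The other, ENSMUST00000155906 (48738346 to 48740621), fell by 1.59 ± 0.29 (SE, limma adjusted p = 0.0102), from 6.37 ± 1.36 to 2.06 ± 0.554 FPKM (SD, n = 3 each). With no strand information, reads of Gimap1 and Gimap1os cannot be told apart where they overlap.

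Gimap1 itself has 3 transcripts annotated as retained introns. ENSMUST00000205031 fell by 2.46 ± 0.34 (SE, limma adjusted p = 0.00466), from 12.1 ± 1.08 to 2.26 ± 0.902 FPKM, and ENSMUST00000142703 by 1.96 ± 0.22 (SE, limma adjusted p = 0.00237), from 9.48 ± 0.916 to 2.37 ± 0.325 FPKM (SD, n = 3 each). ENSMUST00000203797 was at -1.30 (limma adjusted p = 0.0921), although its libraries did not overlap. Taken library by library, ENSMUST00000205031 averaged 45.8% of the Gimap1 mRNA-table value in controls and 27.7% in irradiated thymus.

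The retained intron of Gimap7, ENSMUST00000204266, fell by 1.38 ± 0.39 (SE, limma adjusted p = 0.0409), and the processed transcript of Gimap6, ENSMUST00000132725, fell by 1.21 ± 0.37 (SE, limma adjusted p = 0.0481). Both calls were lost with the replicate number as a block (limma adjusted p = 0.0699 and 0.0974). Without any 1 library other than irradiated 1, the count of lower transcripts was 4 in place of 6. All 3 noncoding transcripts of Gimap5 overlapped between groups, as its mRNA did: ENSMUST00000203006 was at -0.32, ENSMUST00000135174 at -0.36 and ENSMUST00000147047 at 0.68, with limma adjusted p of 0.536, 0.740 and 0.624. ENSMUST00000147047 was listed at 0 in control 1 and in irradiated 2. By the authors' deposited table, calls were made for 2 of the 10, ENSMUST00000205031 (-2.36, adjusted p = 0.0230) and ENSMUST00000205172 (-2.41, adjusted p = 0.0232).

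**Figure D5:**
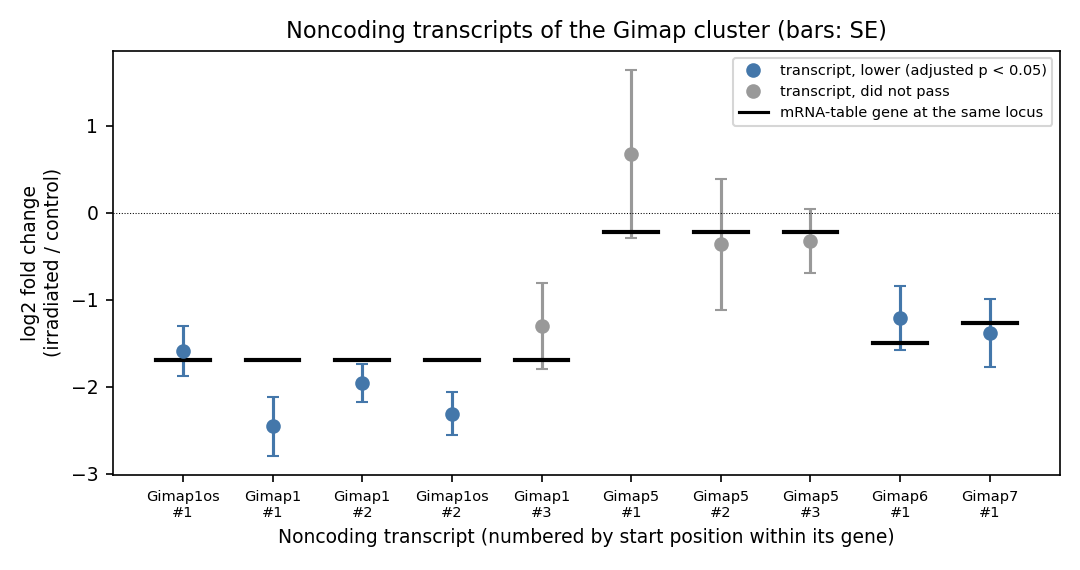
Log2 fold change (irradiated over control, bars are SE) of the 10 noncoding transcripts with a Gimap name, numbered by start position within each gene, with a black line for the mRNA-table gene at the same locus (Gimap1 for Gimap1os). The transcripts of Gimap1, Gimap1os, Gimap6 and Gimap7 all lie below 0, and those of Gimap5 lie on both sides of 0 with wide bars.

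Genes around the cluster were compared to see whether the change was shared along the chromosome. Of 18 other genes of the mRNA table within 300 kb, 13 were tested: 9 were higher, 1 lower and 3 did not pass. The gene that fell was Krba1 (-1.17, limma adjusted p = 0.000757). On the far side of Gimap3 the membrane protein genes Tmem176b (20.7 ± 2.72 to 192 ± 23.7 FPKM, log2 fold change 3.20) and Tmem176a (3.13) rose, as did Aoc1 (2.16) and the macrophage gene Gpnmb (5.61). On the side of Gimap8, Zfp467 (1.95), Sspo (1.44), Atp6v0e2 (3.11), Rarres2 (3.20) and Repin1 (0.80) rose. Lrrc61 (-0.21) and Zfp775 (-0.28) did not pass, nor did Gm28053 (0.094), whose exons overlap those of Gimap7, Gimap1 and Gimap5. The genes Gm45021, AI854703, 1600015I10Rik, Doxl2 and Svs1 were too low to be tested.

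Promoters of the gene that fell most and of the one that rose are shown because both lie in 1 cluster and moved in opposite directions. They are the 250 bases before the RefSeq start (GRCm38.p6), 5′ to 3′ on the strand of the gene, with matches to the motifs named below in capitals, none of which overlap here. The first is chr6:48675885-48676134 on the plus strand and the second chr6:48770852-48771101 on the minus strand.
Gimap9: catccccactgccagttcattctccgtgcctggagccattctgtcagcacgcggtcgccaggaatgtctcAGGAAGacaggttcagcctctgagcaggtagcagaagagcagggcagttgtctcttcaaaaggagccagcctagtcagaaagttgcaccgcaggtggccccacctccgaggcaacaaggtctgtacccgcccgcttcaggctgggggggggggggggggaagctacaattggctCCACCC
Gimap3: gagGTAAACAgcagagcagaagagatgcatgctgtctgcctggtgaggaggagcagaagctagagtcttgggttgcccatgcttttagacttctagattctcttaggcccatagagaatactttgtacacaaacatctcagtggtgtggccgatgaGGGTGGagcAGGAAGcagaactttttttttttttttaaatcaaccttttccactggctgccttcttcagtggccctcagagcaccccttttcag
Motifs of 6 factor families active in T cells were searched on both strands of 300 bases, 250 before to 50 after the start: TGTGGT (RUNX), AGGAAG (ETS), CAGCTG (E-box), GTAAACA (FOXO), TTCAAAG (TCF) and CCACCC (KLF). They were present in 16.8%, 35.4%, 16.3%, 3.65%, 5.14% and 31.5% of the 32851 promoters of the RefSeq table. The Gimap3 window held GTAAACA 1 time, AGGAAG 1 time and CCACCC 2 times, and it was the one member window with GTAAACA. The Gimap9 window held AGGAAG 2 times and CCACCC 1 time. CAGCTG was found in none of the 9 promoters listed for the 8 members. These are matches of letters in a window and not binding sites. The member windows held 2 to 8 CpG pairs, with a median of 7 over all promoters.

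The genes of the mRNA table whose values over the 6 libraries lay nearest to each member were found by Euclidean distance between log2(FPKM + 0.1) values centred on the control mean. Gimap3 was nearest to Itgb7, at a distance of 0.20, an integrin subunit gene that is also in the mature T cell list, and then to Ccdc163 and Lfng. Itgb7 measured 11.6, 14.8 and 17.6 FPKM in control 1 to 3 and 37.5, 20.8 and 23.8 FPKM in irradiated 1 to 3, with irradiated 1 highest as for Gimap3. Gimap4 was nearest to Casp8, the gene of an initiator caspase, at a distance of 0.11, followed by Alg14 and Spout1. Gimap5 was nearest to the cytokine receptor gene Il27ra, then Ccdc125 and Zfp831.

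Gimap9 was nearest to Foxm1, a transcription factor gene of dividing cells, at a distance of 0.19, then Hdac7 and Abtb2. Gimap1 was nearest to Brwd3, Hsdl1 and Klc3, and Gimap6 to Nt5c3b, Ddx11 and Map4k2. Gimap8 was nearest to Zfp369, Pip4k2a and Cdc25b. Gimap7 had no close match, its nearest genes Rbm38, Tk1 and Gabpb1 lying at 0.54, 0.63 and 0.63. These distances describe 6 libraries that share their preparation and depth, and carry no test.

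No member was near the limit set by depth. Depth was estimated from the smallest FPKM steps at 21.9 to 23.2 M fragments in controls and 24.4 to 25.6 M in irradiated libraries, so that 1 fragment in 1 kb is worth 0.0391 to 0.0456 FPKM. The lowest member value, 1.52 FPKM for Gimap7 in irradiated 2, is 33.4 times the higher of these.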

How the data were processed

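Thymus RNA of 3 control and 3 irradiated mice was grouped by the treatment label. The deposited tables give the authors' FPKM per library, 1 value per mRNA gene and 1 per lncRNA-table transcript. The deposited log2 fold changes and p-values come from the authors' test, for which the submitters' processing notes name DESeq2 1.10.1, and are used only where named. Not given in the sources used here are the aligner, the read counter, its use of strand and the annotation. Coordinates follow the files; 99.81% of mRNA-table transcripts found in GENCODE M21 (GRCm38) have its start and end, as do all 21 transcripts of the 8 genes.

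Values were tested with limma 3.58.1 (R 4.3.3) on log2(FPKM + 0.1), a group-only model with empirical Bayes moderation and an abundance trend. Genes averaging at least 0.5 FPKM and lncRNA-table transcripts averaging at least 0.1 FPKM were kept, with 1 fit per table and p-values adjusted (Benjamini-Hochberg) over that whole table. Fold changes are on the log2(FPKM + 0.1) scale, which understates changes of low genes. The fit was tested on simulated data in which few genes changed, about equally up and down. In the real data 63.2% of mRNA genes passed, so the simulation does not bear on the scaling between libraries. Alternatives changed the pseudocount, filter, scaling, trend, replicate block and the libraries used, 1 at a time. All per-sample columns were mapped to samples. Motifs were found by exact letters in RefSeq promoters, and coding loops by translating M21 coding sequences.

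The members and the gene lists were chosen with earlier results of these data known. Named genes are all members, their noncoding transcripts above 0, all partner genes, all genes within 300 kb, the 3 nearest genes per member, and in each other list the 3 smallest adjusted p plus members that did not pass where a list was split. Other list genes named (S1pr1, Ccr7, Txk, Mycn, Gata3, Ets1, Runx1, Lef1, Foxo1, Runx3) were chosen after their values were seen. Some list genes that the rule covers are not reported here.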

Additional observations from a re-analysis of the deposited data

How the results depend on the processing

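Gimap8, Gimap9, Gimap6 and Gimap1 stayed lower and past the threshold under all 15 alternatives tried for each. Leaving out each library in turn, 4 to 5 members were lower and 0 to 1 higher. Gimap3 was not called, leaving 0 members higher, after median-ratio scaling, after scaling to equal summed FPKM, without control 1, without control 2 and in the authors' deposited calls; the cause was not tested. Gimap4 changed sign after median-ratio scaling (-0.059). Over all mRNA genes, 3501 were higher and 4403 lower after quantile normalization, and 4924 were lower after median-ratio scaling. Leave-one-out fits gave 4916 to 6730 higher and 2150 to 3466 lower. Of the noncoding transcripts of Gimap5, ENSMUST00000147047 changed sign without control 1 (-0.00224), ENSMUST00000135174 after quantile normalization (0.060) and without irradiated 3 (0.40), and ENSMUST00000203006 after quantile normalization (0.23) and without irradiated 2 (0.025). None of these 3 passed under any of those settings, and their leave-one-out ranges were -0.00224 to 1.69, -1.18 to 0.40 and -0.61 to 0.025. Leave-one-out fits gave 4 to 6 lower noncoding transcripts of Gimap genes, and 1287 to 3008 higher and 1659 to 7109 lower among all lncRNA-table transcripts. Same-numbered control and irradiated libraries did not deviate together (correlations of 0.060, -0.043 and 0.052). Those with different numbers gave correlations of -0.096 to 0.056. With 3 libraries per group these values cannot show whether the numbers pair libraries. With the replicate number as a block, 5 members were lower and 1 higher (Gimap3, limma adjusted p = 0.0402), and noncoding calls went from 6 to 4. Fits that leave out a library rest on 2 libraries in that group.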

Other observations

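Another group of GTPases was listed, the 15 interferon-inducible GTPases of the IRG, GBP and MX families, which act against intracellular microbes. Of these 11 rose, 1 fell and 3 did not pass, with a median log2 fold change of 1.76 against 0.40 for all tested genes. Iigp1 went from 8.30 ± 0.858 to 65.3 ± 33.4 FPKM (SD, n = 3 each; log2 fold change 2.82, limma adjusted p = 0.000684) and Gbp3 from 4.37 ± 0.352 to 32.3 ± 16.4 FPKM (2.69, limma adjusted p = 0.00133). Gbp4 fell from 39.9 ± 4.31 to 16.5 ± 4.13 FPKM (-1.29, limma adjusted p = 0.00135). Gbp6 (0.54), Gbp9 (0.27) and Igtp (0.56) did not pass. Their mean log2 level stood 0.55, 1.73 and 2.30 above controls in irradiated 1, 2 and 3.

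Of 13 transcription factor genes known in lymphocytes, 9 fell, 3 rose and 1 did not pass, with a median of -1.12. Tcf7 (-3.01), Bcl11b (-2.91) and Gata3 (-1.65), which hold T cell identity, fell, and so did Ets1 (-1.77), Runx1 (-0.81) and Lef1 (-1.61). Klf2 (1.46), Foxo1 (0.76) and Runx3 (0.60) rose, and Notch1 (0.16) did not pass. After median-ratio scaling 1 of the 13 rose.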
